A study of Mus musculus with 16 samples.

Results

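Most mammalian protein-coding genes are split by introns, and the few that are not include histones, many receptors, several rapidly induced transcription factors and copies made by reverse transcription of spliced messages. Here such genes were described in liver of Ercc1-deficient mice on 4 diets. A gene was taken as single-exon when its outermost exon ends lay exactly as far apart as its summed exon length in the deposited count table, so that no intron was left over. It also had to be protein-coding, lie on an autosome or X, and average at least 1 CPM, the usual depth-scaled count, of the plain library total over the 16 libraries. The rule found 251 genes among 1393 single-exon protein-coding genes at any level, 20990 protein-coding genes at these chromosomes and 54752 genes in all. The genes were thus selected on their mean level over the 16 libraries, and these levels are given as description. Just inside the minimum were 1700056E22Rik at 1.0011, Gm12355 at 1.0082 and C730034F03Rik at 1.0229 CPM. Just outside were Rnf113a1 at 0.9846, Ccdc8 at 0.9384 and Brd3os at 0.9367. All 251 passed the low-count filter of the tests.

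The series compared the liver of male mice of genotype Ercc1 d/-, F1 hybrids of C57BL6J and FVBN, aged 11 weeks, with 4 animals per diet. Ercc1 encodes part of an endonuclease of DNA repair, and all 16 animals carried the same alleles, so no library here comes from a repair-proficient mouse. The diets were fed ad libitum from 8 weeks of age. The control diet was AIN93G pellets. The high protein diet held 194% of the standard protein and 70% of the standard carbohydrate. The low protein diet held 70% of the protein and 112% of the carbohydrate. The low fat diet held 70% of the fat and 112% of the carbohydrate. The series title is concerned with transcription that declines with gene length, and genes without introns are the counterpart of long genes in that question. The labels do not say how animals shared litters or cages, and the p-values therefore reflect only how these 16 libraries vary.

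The name single-exon holds for most, not all, of the 251 genes. In the GENCODE M21 annotation (GRCm38), 188 had no spliced transcript. The other 63 had at least 1 spliced transcript, and their exons together filled the span because other transcripts retain the introns. Gpx1, Rpl9, Rps13, Irf7, Atf4, Mt1, Cebpa, Apon, Zfp36 and Cebpd are among these, and Irf7 and Dnase1 have transcripts of 10 exons. Some results are given for both groups. Exon lengths ran from 390 to 11294 bases with a median of 2457, and 11 of the genes lay on X. 31 of the genes overlapped another gene on the same strand, 81 overlapped one on the opposite strand and 35 lay inside the span of another protein-coding gene. The library kit keeps strand, but the strand setting of the counting is not given in the sources used here, so reads of overlapping genes on opposite strands cannot be told apart.

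A gene without introns is transcribed and released without splicing, which shortens the delay between the start of transcription and a finished message. Immediate early genes such as Jun and Ier2 are switched on within minutes of a stimulus and make short-lived messages. Heat shock genes Hspa1a and Hspa1b encode inducible chaperones driven by HSF1. Replication-dependent histone genes end in a conserved stem-loop in place of a poly(A) tail. In liver, C/EBP-alpha, the product of Cebpa, is a main factor of hepatocyte identity. Retrocopies, made when a spliced message is copied back into the genome, share nearly all of their sequence with the parent gene.

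Library totals ran from 35243594 to 112789127 counts, and the deepest was low fat 2. The 251 genes together took 0.7447% to 1.172% of the counts of a library. From here on CPM uses TMM-scaled library sizes. The 10 hepatocyte markers were counted in every library and summed to between 77170 and 155700 CPM. Control 4 stood apart from the other controls: it was the highest of all 16 libraries for 84 of the 251 genes (33.47%, against 29.13% of all genes tested) and the lowest for 73 (29.08%, against 26.46%). Kidney transcripts were present at between 7.33 summed CPM in high protein 1 and 5245 CPM in control 3 over 17 marker genes. In whole liver, fewer cells of a type and less RNA per cell cannot be told apart. Results that rest on control 4 are given below with and without it. The 11 Kupffer cell markers, which mark the resident macrophages of liver, summed to 216.9 to 290.9 CPM with high protein and 243.2 to 386.5 CPM with low fat.

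Per kilobase of exon, the 251 genes had a median of 3.413 RPKM, against 6.843 for the 2413 multi-exon protein-coding genes at the same minimum that span at most 10 kb and 1.516 for the 1507 that span more than 100 kb. All 17833 genes tested had a median of 1.993 RPKM. The spread between animals of a diet, as the biological coefficient of variation, had a median of 28.05% for the 188 genes without a spliced transcript. It was 23.77% for the 63 with one, 22.31% for the short multi-exon genes and 27.65% for all genes tested. These classes also differed in level, with medians of 6.518, 11.24, 16.88 and 7.54 CPM in the same order. The part of level in the spread was not tested. GC content had a median of 52.68% in the 251 genes, 53.28% in short multi-exon genes and 47.57% in long ones.

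The median differences of the single-exon genes between diets were small in all 6 comparisons and are given beside those of short and long multi-exon genes. With high protein against control, the median log2 fold change was -0.061 over the 251 genes, 0.053 over the short multi-exon genes, -0.16 over the long genes and -0.062 over all genes tested. 105 of the 251 genes (41.83%, against 41.69% of all genes tested) had a higher and the others a lower fitted level with high protein. The 188 genes without a spliced transcript had a median of -0.089 and the 63 with one had 0.025. Without control 4, the median of the 251 genes was 0.015, that of the short genes 0.077 and that of the long genes -0.105. With high protein against low fat, the medians were 0.012 over the 251 genes, 0.076 over the short and -0.123 over the long genes. The 188 genes without a spliced transcript had -0.011 in that comparison and the 63 with one had 0.073. For high against low protein the medians of the 251, the short and the long genes were -0.01, 0.047 and -0.071.

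The other comparisons gave similar small values. Low protein against control had a median of 0.001 over the 251 genes, beside 0.022 in short and -0.096 in long genes. Low fat against control had -0.056, beside -0.007 and -0.005. Low fat against low protein had -0.076, beside -0.037 in short and 0.052 in long genes. In that comparison 93 of the 251 genes (37.05%) had a higher fitted level with low fat, against 41.4% of short genes and 50.39% of all genes tested. Without low fat 3 that median was -0.031, beside 0.011 in short and 0.007 in long genes. Low fat 3 had the lowest level of the single-exon genes among all libraries: their median deviation from the 16-library mean, on the log2(CPM + 0.5) scale, was -0.126, where the other low fat libraries had -0.001, 0.002 and 0.02. The same library was the lowest for short genes (-0.166) and the highest for long genes (0.18). Its kidney markers summed to 3357 CPM, below only control 3, and their part in this was not tested.

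**Figure D1:**
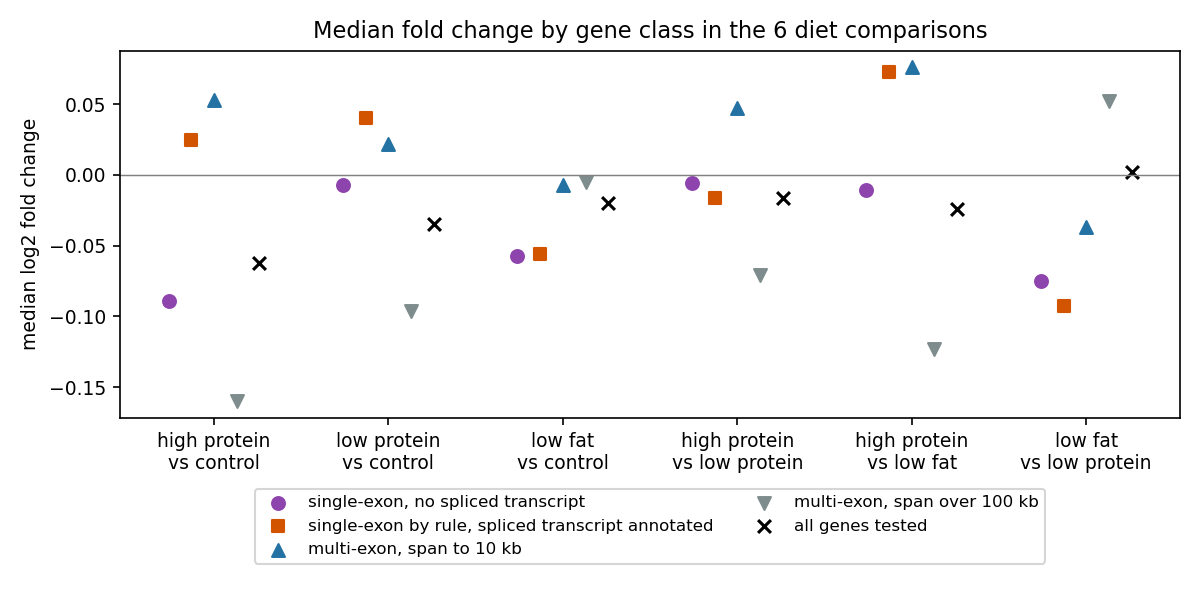
Median log2 fold change (y axis) of 5 gene classes in each of the 6 diet comparisons (x axis), without error bars because genes are not replicates. The long genes had the lowest median in the comparisons of high protein with the other diets, while the single-exon genes without a spliced transcript lay between the short and long genes in all 3 of those comparisons.

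**Figure D2:**
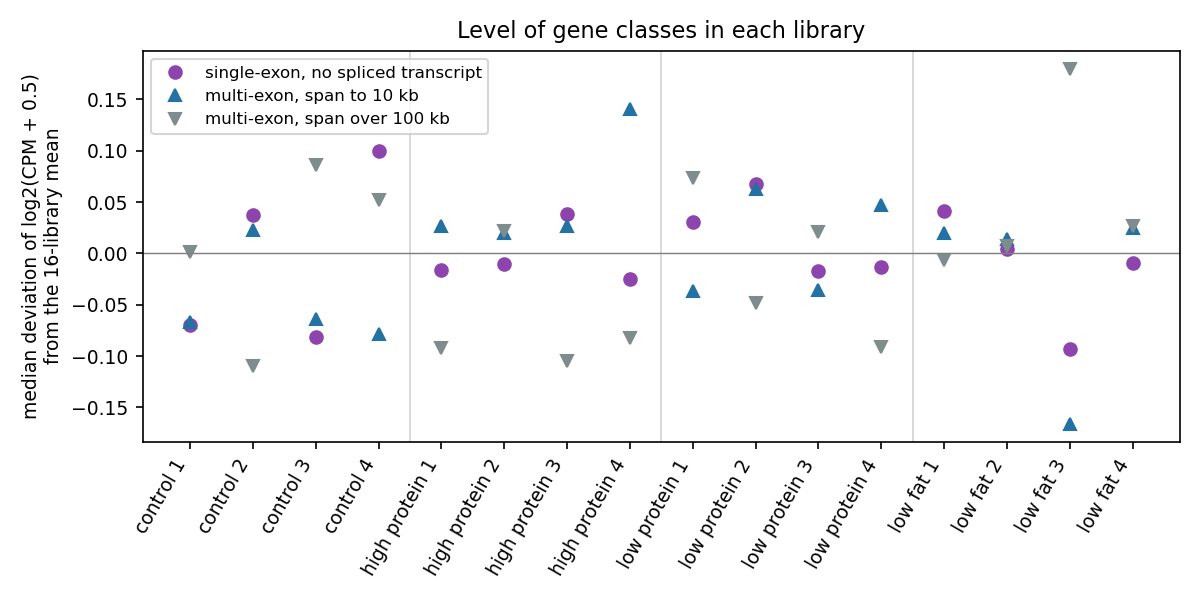
Median deviation of log2(CPM + 0.5) from the 16-library mean (y axis) for 3 gene classes in each library (x axis), with grey lines between diets. In control 4 the 188 single-exon genes without a spliced transcript had 0.1 (all 251 genes had 0.036) while the short multi-exon genes had -0.079, and in low fat 3 both classes were below the mean.

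In the edgeR quasi-likelihood fit over all 17833 genes, no single-exon gene passed a Benjamini-Hochberg adjusted p of 0.05 in any of the 6 comparisons, and neither did any other gene (0.0% called in each). At an unadjusted p under 0.05, high protein against control gave 17 of the 251 genes, or 6.773%, against 6.22% of all genes, with 10 of them higher (2.48% of all genes) and 7 lower (3.74% of all genes). Low protein against control gave 25 genes (9.96%), against 7.08% of all, with 8 higher (2.35% of all) and 17 lower (4.73% of all). Low fat against control gave 27 (10.76%), against 9.22% of all, with 4 higher (3.09% of all) and 23 lower with low fat (6.13% of all). High against low protein gave 12 (4.781%), against 5.17%, with 5 higher (2.34% of all) and 7 lower (2.83% of all). High protein against low fat gave 24 (9.562%), against 9.08%, with 18 of them higher with high protein (4.67% of all genes) and 6 lower (4.41% of all genes). Low fat against low protein gave 7 (2.789%), against 2.38%, with 2 higher (1.01% of all) and 5 lower (1.37% of all). These shares lie near the background of all genes. In DESeq2, 1 of the 251 genes passed in high protein against low fat (0.468% of all genes tested), and none passed in the other 5 comparisons, where DESeq2 called 1 (0.00566%), 10 (0.0578%) and 4 (0.0227%) of all genes when high protein, low protein and low fat were set against control, 23 (0.133%) between the high and low protein diets and 0 (0.0%) for low fat against low protein. An edgeR fit of those 2 diets alone also called 1 (0.0953% of all genes tested). The counts against control depended on single libraries. Without control 4 they were 33 for high protein (8.795% of all genes in the same fit) and 10 for low protein (3.648%). Without control 3 they were 31, 48 and 58 for high protein, low protein and low fat (11.44%, 15.5% and 20.39% of all genes), and 109 of all genes but none of the 251 then passed the adjusted p for low fat. Leaving out control 1 gave 40 for low protein (12.29% of all genes) and 48 for low fat (14.57%), and leaving out control 2 gave 26 for high protein (10.25%). Low protein against control gave 16, 15, 13 and 12 without low protein 1, 2, 3 and 4 (5.526%, 5.012%, 4.735% and 4.889% of all genes). High against low protein gave 4 without high protein 4 (2.911% of all genes), 7 without low protein 1 (3.512%) and 5 without low protein 3 (3.37%). Low fat against low protein gave 11 without low protein 3 (1.851% of all genes) and 12 without low fat 4 (2.434%). The share of all genes thus moved with most of these counts.

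Cebpa (chromosome 7, 35119293 to 35121928, GRCm38) was the most abundant single-exon transcription factor. It lay at 297, 487, 362 and 584 CPM in control, 446, 482, 402 and 235 under high protein, 412, 476, 526 and 482 under low protein and 280.0, 285, 259 and 319 under low fat. The low fat libraries were all below the low protein libraries (log2 fold change -0.73, SE 0.22, unadjusted p = 0.00438, edgeR adjusted p = 1.0), and the controls overlapped both groups. Cebpb and Cebpd, which encode relatives of C/EBP-alpha induced by inflammation and glucocorticoids, were lower and more variable. Cebpb lay at 3.86, 7.17, 12.8 and 26.8 CPM in control, 6.27, 23.6, 58.9 and 16.5 under high protein, 11.2, 13.2, 12.6 and 10.0 under low protein and 5.92, 4.31, 3 and 26.4 under low fat, with high protein 3 the highest library. Cebpd lay at 7.78, 5.94, 5.96 and 63.7 CPM in control, 12.6, 8.17, 13.5 and 22.8 under high protein, 3.53, 7.31, 3.18 and 5.37 under low protein and 6.64, 2.83, 4.63 and 5.84 under low fat. Every high protein library was above every low protein and low fat library for Cebpd (log2 fold change 1.56, SE 0.67, unadjusted p = 0.034, edgeR adjusted p = 0.947 against low protein). Its difference between low protein and control (log2 fold change -2.10, SE 0.68, unadjusted p = 0.00722, edgeR adjusted p = 0.682) was -0.45 without control 4. Foxq1, a forkhead factor, lay at 43.6, 21.9, 53.2 and 74 CPM in control, 30.1, 29.7, 7.3 and 5.12 under high protein, 17.8, 10.9, 30.0 and 5.7 under low protein and 4.09, 3.69, 35.2 and 18.7 under low fat, with the low fat libraries spread widely. The 22 expressed multi-exon liver transcription factors had a median log2 fold change of -0.218 with low fat against control.

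**Figure D3:**
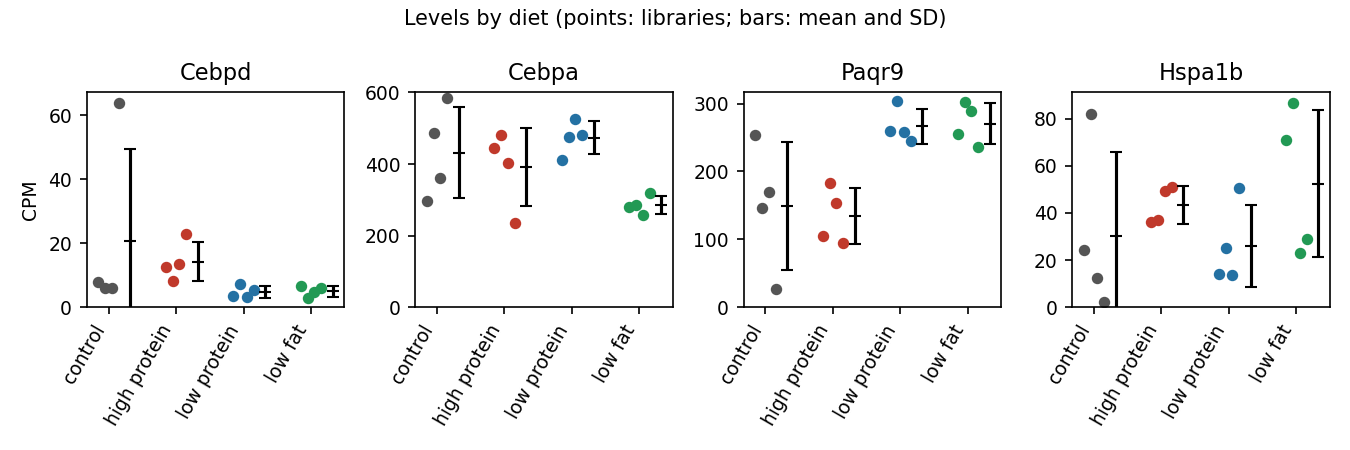
CPM (y axis, from 0, separate scale in each panel) of Cebpd, Cebpa, Paqr9 and Hspa1b by diet, with points for libraries and black bars for the mean and SD of 4 libraries, ending at 0 where the SD exceeds the mean. Cebpd in high protein lies above low protein and low fat without overlap, Cebpa in low fat lies below low protein, and Paqr9 in high protein lies below both high-carbohydrate diets.

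Paqr9 (chromosome 9, 95559657 to 95568023), a membrane protein of the progestin and adipoQ receptor family abundant in liver, was chosen after its values were seen. It lay at 253, 146, 170.2 and 26.6 CPM in control, 105, 183, 154 and 95.2 under high protein, 260.2, 303, 258 and 244 under low protein and 256, 302, 288 and 236 under low fat. The 4 high protein libraries were all below the low protein and the low fat libraries, while control 4 was the lowest of all. High against low protein gave a log2 fold change of -0.99 (SE 0.42, unadjusted p = 0.0331, edgeR adjusted p = 0.947). High protein against low fat gave a log2 fold change of -1.01 (SE 0.42, unadjusted p = 0.0298, edgeR adjusted p = 0.531).

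The immediate early list held 9 single-exon genes: Zfp36, Jun, Jund, Ier2, Rhob, Cebpb, Cebpd, Ier5 and Ier5l. All but Ier5 and Ier5l were well above the other controls in control 4. Jun (chromosome 4, 95049034 to 95052222) encodes a subunit of the AP-1 transcription factor. Its promoter is shown as an example from this group, with matches to a cyclic AMP response type motif and an MEF2 type motif in capitals. The window is the 250 bases upstream of the RefSeq start, chr4:95052223-95052472 on the minus strand of GRCm38.p6.
Jun: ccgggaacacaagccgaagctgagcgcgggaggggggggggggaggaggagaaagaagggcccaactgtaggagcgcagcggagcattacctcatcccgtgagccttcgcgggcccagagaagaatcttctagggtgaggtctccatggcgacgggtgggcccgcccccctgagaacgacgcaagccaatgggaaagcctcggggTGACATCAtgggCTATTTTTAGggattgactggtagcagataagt
The letters TGACNTCA were searched on both strands and occurred in 7.49% of 32851 such RefSeq windows and in 9.52% of 168 windows of the single-exon genes, of which 166 had an entry. The MEF2 type motif, the palindromic core bound by MEF2 factors, occurred in 3.2% of all windows and 2.38% of those. A match describes letters only.

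Jun lay at 27.9, 43.2, 26.1 and 421 CPM in control, 44.6, 39.5, 35.2 and 92.4 under high protein, 47.3, 36.4, 35 and 28.8 under low protein and 42.5, 46.6, 30.9 and 31.4 under low fat. Control 4 was far above all other libraries, and high protein 4 was the next highest. Ier2, an early response nuclear protein chosen after its values were seen, lay at 18.4, 33.2, 30.5 and 251 CPM in control, 32.7, 30.0, 29 and 27.7 under high protein, 32.2, 29.1, 27.3 and 34.4 under low protein and 28.3, 24.5, 17.6 and 24.5 under low fat. Zfp36, whose product tristetraprolin binds AU-rich elements and speeds mRNA decay, lay at 53.6, 80.8, 64.6 and 483 CPM in control, 92, 71.2, 101 and 128 under high protein, 132, 95.8, 88.1 and 122 under low protein and 140.3, 109.9, 54.3 and 70.5 under low fat. Jund, an AP-1 subunit with steadier expression, lay at 36.7, 46.5, 34.9 and 214 CPM in control and between 38.5 and 67.2 CPM in the 12 other-diet libraries. Rhob, a small GTPase, lay at 30.3, 35.6, 26 and 116 CPM in control and between 28.0 and 44.8 CPM elsewhere. Control 4 was at least 2-fold above the highest other control, in CPM + 0.5, for 7 of the 9 single-exon genes, namely Cebpb, Jun, Zfp36, Jund, Ier2, Rhob and Cebpd. The same held for 20 of the 27 expressed multi-exon genes of the list, so the pattern was shared with spliced genes. Over all 251 genes the count was 31 (12.35%), against 8.247% of short multi-exon genes and 8.557% of all genes tested. The share was 13.83% of the 188 genes without a spliced transcript and 7.937% of the 63 with one. In the other direction, control 4 was at most 1/2 of the lowest other control for 23 of the 251 genes (9.163%). This held for 8.869% of short multi-exon genes and 6.466% of all genes tested.

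The direction of the list against control turned when that library was left out. With all libraries, 8 of the 9 genes had a lower fitted level under high protein, 7 under low protein and 7 under low fat, and the medians were -0.544, -0.667 and -0.844, and the multi-exon genes of the list had -0.877, -0.86 and -0.803. Of the single-exon genes, 1, 3 and 3 reached an unadjusted p under 0.05, all lower, where 3.74%, 4.73% and 6.13% of all genes were lower at that p. Without control 4, the counts of higher genes became 8, 7 and 7 of 9 and the medians 0.423, 0.168 and 0.196. Between the 3 altered diets, which do not involve that library, 7 of 9 were higher with high protein than with low fat (median 0.196, against -0.024 over all genes) and 5 of 9 higher than with low protein (median 0.103). Without high protein 4 these were 6 of 9 (median 0.097) and 5 of 9 (median 0.005). The multi-exon medians of the list then went from 0.229 and 0.392 to 0.061 and -0.088. Without low fat 3, 5 of 9 were higher with high protein than with low fat (median 0.118). Control 4 also had the highest hepatocyte marker sum (155700 CPM), and its endothelial marker sum of 443.1 CPM was the highest. The part of these cell type sums in the values of control 4 was not tested.

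**Figure D4:**
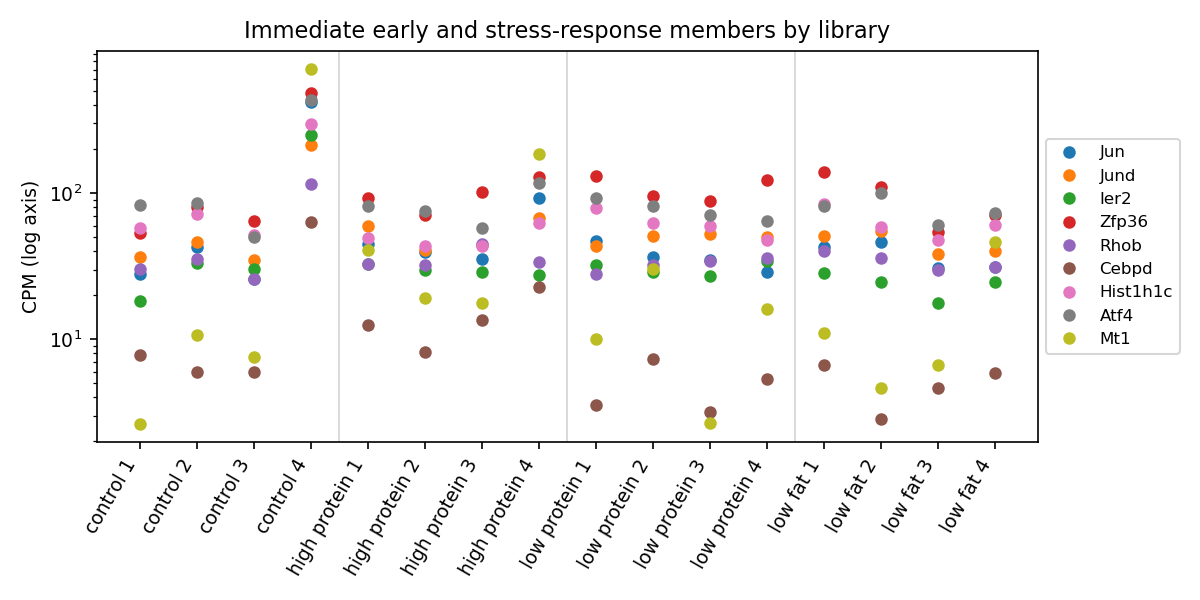
CPM on a log axis (y axis) of 9 single-exon genes in each of the 16 libraries (x axis), 1 point per gene and library, with grey lines between diets. All 9 genes have their highest point in control 4, with Mt1 at 713 CPM and Jun at 421 CPM.

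Stress genes outside that list were also highest in control 4. Mt1, which encodes metallothionein 1, a metal-binding protein induced by zinc and glucocorticoids, lay at 2.64, 10.8, 7.61 and 713 CPM in control, 41.1, 19.2, 17.6 and 185 under high protein, 10.1, 30.4, 2.69 and 16.1 under low protein and 11, 4.64, 6.63 and 46.6 under low fat. High protein 4 was the second highest library, and all 4 high protein libraries were above 3 of the controls. Low protein against control gave a log2 fold change of -3.63 (SE 1.52, unadjusted p = 0.0299, edgeR adjusted p = 0.682), and the sign turned to 1.06 without control 4. Atf4, the factor of the amino acid response and a gene with a spliced transcript, was chosen after its values were seen and lay at 83.6, 86.3, 50.5 and 432 CPM in control, 82, 76, 57.7 and 118 under high protein, 92.9, 81.9, 71.1 and 64.5 under low protein and 81.8, 99.7, 60.4 and 72.9 under low fat. Low protein against control gave a log2 fold change of -1.07 (SE 0.50, unadjusted p = 0.0472, edgeR adjusted p = 0.682), which became 0.06 without control 4.

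The heat shock genes Hspa1a and Hspa1b had their lowest level in control 4. Hspa1a (chromosome 17, 34969190 to 34972156) and Hspa1b (chromosome 17, 34956436 to 34959238) are neighbours that encode nearly the same HSP70 chaperone. Their longest annotated transcripts aligned over 2201 bases at 99.228% identity, so part of the reads of one could come from the other. Their upstream windows are shown to let the pair be compared. The heat shock element GAANNTTC is in capitals. The windows are chr17:34972157-34972406 for Hspa1a and chr17:34959239-34959488 for Hspa1b, both on the minus strand of GRCm38.p6 and from RefSeq.
Hspa1a: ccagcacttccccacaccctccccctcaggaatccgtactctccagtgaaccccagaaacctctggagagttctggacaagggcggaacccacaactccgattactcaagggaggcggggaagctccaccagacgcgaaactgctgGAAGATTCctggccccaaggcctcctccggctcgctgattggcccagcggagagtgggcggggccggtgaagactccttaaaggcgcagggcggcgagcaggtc
Hspa1b: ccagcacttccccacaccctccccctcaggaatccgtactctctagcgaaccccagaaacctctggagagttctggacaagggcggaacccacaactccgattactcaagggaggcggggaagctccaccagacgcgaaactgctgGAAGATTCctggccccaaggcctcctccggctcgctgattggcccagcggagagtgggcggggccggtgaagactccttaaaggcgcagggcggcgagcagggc
The 2 windows differ at 3 of 250 positions and each holds 1 match. These letters occur in 6.69% of all windows and 6.55% of windows of the single-exon genes.

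Hspa1b lay at 24.3, 82, 12.4 and 2.06 CPM in control, 36, 37.2, 49.5 and 51.2 under high protein, 14.1, 25, 13.6 and 50.7 under low protein and 71, 86.8, 22.9 and 29.1 under low fat. Hspa1a lay at 9.78, 36.5, 6.44 and 1.99 CPM in control, 15.1, 18.2, 22.7 and 25.3 under high protein, 6.64, 13.9, 6.5 and 21.9 under low protein and 31.6, 36.1, 15.4 and 16.5 under low fat. In both genes control 4 was the lowest and control 2 or low fat 2 the highest library, and low fat 1 and 2 were above low fat 3 and 4. Control 4 was at most 1/2 of the lowest other control, in CPM + 0.5, for both genes and for none of the 20 multi-exon heat shock genes, of which 3 had control 4 at least 2-fold above the highest other control. The 4 high protein libraries were within a narrow range and above 3 of the 4 low protein libraries. High against low protein gave a log2 fold change of 0.75 (SE 0.74, unadjusted p = 0.328, edgeR adjusted p = 0.998) for Hspa1b. Of the 20 multi-exon heat shock genes, 18 had a higher fitted level with high than with low protein (median 0.294, against -0.016 over all genes), 6 of them higher at an unadjusted p under 0.05 (2.34% of all genes), and no gene passed after adjustment. The difference was not particular to high protein. With low fat against low protein, 17 of the 20 were higher (median 0.283, against 0.002 over all genes). Low protein against control gave 16 lower (median -0.108, against -0.035 over all genes). High protein against low fat gave 11 higher and 9 lower (median 0.014).

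Histone genes were the largest family, with 15 of the 251 genes, 8 of them on chromosome 13 and 3 on chromosome 3. The 3′ stem-loop of replication-dependent histone messages, searched by its consensus on the transcript strand, occurred in 12 of the 15 and in 76 of 21186 protein-coding genes (0.359%). 4 examples are shown with 5 bases on either side and the stem-loop in capitals, as read from the GENCODE M21 transcripts.
Hist1h1c: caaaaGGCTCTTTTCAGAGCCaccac
H2afx: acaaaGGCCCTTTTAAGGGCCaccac
Hist1h4i: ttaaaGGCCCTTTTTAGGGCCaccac
Hist1h2bg: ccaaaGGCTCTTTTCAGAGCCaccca
H1f0, H2afj and Hist2h2be had no match. In Hist1h1c the annotated transcript runs on for 840 bases past the stem-loop, and in Hist1h2bg for 155. The labels name the library kit but not whether poly(A) selection was used, which bears on how messages without a tail are counted.

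The linker histone genes H1f0 and Hist1h1c had the highest CPM of the family, while Hist1h1d, also a linker histone gene, had a mean of only 1.235 CPM. H1f0, the replication-independent H1, lay at 104, 102, 104 and 119 CPM in control, 98.3, 112, 86.9 and 87.5 under high protein, 123, 113, 109 and 103 under low protein and 106, 91.2, 96.6 and 104 under low fat. Its libraries were within a narrow range in all diets. Hist1h1c lay at 57.7, 71.7, 52 and 299 CPM in control, 49.7, 43.7, 43.8 and 63 under high protein, 79, 63, 59.96 and 48.1 under low protein and 84.2, 59.1, 48 and 60.7 under low fat. Only control 4 stood out, and the difference between high protein and control (log2 fold change -1.26, SE 0.44, unadjusted p = 0.0119, edgeR adjusted p = 0.762) was -0.28 without it. H2afj lay between 18.0 and 33.9 CPM. Hist1h2bg, a core histone gene counted at few CPM, lay at 2.12, 2.13, 1.84 and 0.552 CPM in control, 2.34, 3.49, 5.03 and 2.51 under high protein, 2.48, 3.22, 2.67 and 3.26 under low protein and 2.84, 2.29, 2.81 and 2.41 under low fat. All high protein libraries were above all controls (log2 fold change 1.00, SE 0.34, unadjusted p = 0.0099, edgeR adjusted p = 0.762). This difference was 0.71 without control 4 (edgeR unadjusted p = 0.0118). Against control, 9 of 15 histone genes had a higher fitted level under high protein, 10 under low protein and 12 under low fat, and the medians were 0.145, 0.064 and 0.339. Without control 4 these counts were 6, 8 and 9, with medians of -0.109, 0.028 and 0.029. At an unadjusted p under 0.05 were 3 higher and 1 lower with high protein, 1 and 1 with low protein and none with low fat, where 2.48% and 3.74%, 2.35% and 4.73%, and 3.09% and 6.13% of all genes were higher and lower. The 14 proliferation markers summed to between 43.41 and 72.36 CPM in all libraries.

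Receptors of the cell surface form another group without introns. The list of G protein-coupled receptors held 8 of the 251 genes. The Wnt receptors Fzd8 and Fzd7 and the lysophosphatidic acid receptor Lpar6 were the highest in CPM. Fzd8 lay at 39.6, 47.7, 39.8 and 31.4 CPM in control, 51.8, 34.9, 18.2 and 23.4 under high protein, 41, 33.3, 39.6 and 32 under low protein and 18.7, 27.8, 27.8 and 44.2 under low fat. Fzd7 lay at 16.2, 8.46, 13.7 and 9.39 CPM in control, 11.8, 11.2, 8.71 and 5.23 under high protein, 16.6, 15, 16.9 and 12.5 under low protein and 10.8, 10.5, 25.2 and 10.2 under low fat, with low fat 3 the highest library. High against low protein gave a log2 fold change of -0.72 (SE 0.32, unadjusted p = 0.0382, edgeR adjusted p = 0.956), and all 4 high protein libraries were below all 4 low protein libraries. Lpar6, which lies within the span of Rb1 on the opposite strand, lay at 16.8, 16.8, 14.2 and 2.33 CPM in control, 8.58, 13.3, 15.5 and 11.3 under high protein, 20.0, 12.7, 17.6 and 16.2 under low protein and 17.3, 15.1, 20.9 and 23.7 under low fat, with control 4 the lowest. All 8 receptors had a lower fitted level with high than with low protein, with a median of -0.359, and 1 of them, Fzd7, reached an unadjusted p under 0.05 (2.83% of all genes lower). The 66 expressed multi-exon receptors of the list had a median of -0.114, with 47 lower, and all genes had -0.016. Against control, 7 of the 8 were lower with high protein (median -0.335, against -0.062 over all genes), and 8 without control 4 (median -0.402). Against low fat, 7 were lower with high protein (median -0.265, against -0.024 over all genes), and 5 without low fat 3 (median -0.156). Thbd, which encodes thrombomodulin, an anticoagulant receptor of endothelium, lay at 2.58, 3.53, 3.48 and 11.1 CPM in control, 5.78, 3.54, 7.03 and 5.96 under high protein, 3.61, 2.23, 2.85 and 2.71 under low protein and 5.26, 5.01, 5.63 and 5.92 under low fat. Its level in every high protein and low fat library except high protein 2 was above every low protein library (log2 fold change 0.97, SE 0.37, unadjusted p = 0.0194, edgeR adjusted p = 0.944 for high against low protein).

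The most abundant genes of the set were enzymes and secreted or binding proteins of hepatocytes. Gpx1, glutathione peroxidase 1, had the highest level per kilobase, with a mean of 972 RPKM, and a spliced transcript. It lay at 1288, 1479, 1158 and 913 CPM in control, 1408, 1372, 1615 and 1849 under high protein, 1506, 1573, 1322 and 1397 under low protein and 1499, 1401, 1239 and 1385 under low fat. Control 4 was the lowest library, and high protein against control gave a log2 fold change of 0.37 (SE 0.15, unadjusted p = 0.0242, edgeR adjusted p = 0.762). Without control 4 the difference was 0.25 (edgeR unadjusted p = 0.0739). Sephs2, which makes selenophosphate for selenoprotein synthesis and is itself a selenoprotein, lay between 656 and 1036 CPM. Cyp8b1, the sterol 12-alpha-hydroxylase that sets the cholic acid share of bile acids, lay at 262, 213, 211 and 416 CPM in control, 181, 228, 255 and 206 under high protein, 406, 341, 179 and 324 under low protein and 524, 189.5, 203 and 113 under low fat. Its low fat libraries ranged from the lowest to the highest of all 16. Apon, an apolipoprotein gene, lay at 368.4, 306, 223 and 103 CPM in control, with control 4 the lowest of all libraries, and between 202 and 377 CPM elsewhere. Pcbp1, a poly(C)-binding RNA regulator and itself a known retrotransposed gene, lay between 115 and 155 CPM. Cldn3, a tight junction protein of hepatocytes and bile ducts, lay at 73.9, 86.7, 65.6 and 45.6 CPM in control, 75, 81.7, 80.3 and 56.9 under high protein, 83.4, 107, 106 and 90.3 under low protein and 98.4, 76.4, 86.5 and 58.1 under low fat. All 4 low protein libraries were above 3 of the controls and overlapped the highest (log2 fold change 0.51, SE 0.20, unadjusted p = 0.0206, edgeR adjusted p = 0.682). This difference was 0.34 without control 4 (edgeR unadjusted p = 0.0739).

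Retrocopies need care because their reads can come from the parent. 36 of the 251 genes had a near-identical copy elsewhere, taken as at least 95% identity over at least 80% of the transcript, and in 33 of these the copy had the higher mean CPM. Each gene was searched by its longest annotated transcript, so copies of shorter spliced forms can be missed. Hspa1a and Hspa1b, alike over part of their length, are not among the 36. How reads that match several places were counted is not given in the sources used here, so the levels of at least these 36 genes are uncertain. Gm4737 (chromosome 16, 46152985 to 46155077) was the second highest of the set per kilobase. Its transcript is 99.712% identical to Ahcy, the gene of S-adenosylhomocysteine hydrolase of the methionine cycle. Gm4737 lay at 952, 1297, 962 and 5148 CPM in control, 1847, 1344, 1241 and 2569 under high protein, 959, 1031, 792 and 1021 under low protein and 1041, 827, 700.0 and 1191 under low fat. Ahcy lay at 1612, 2164, 1618 and 8384 CPM in control, 2984, 2306, 2156 and 4093 under high protein, 1654, 1787, 1400.0 and 1718 under low protein and 1754, 1394, 1279 and 1979 under low fat. The ratio of Gm4737 to Ahcy ran only from 0.5472 to 0.6277 over the 16 libraries. Both genes were highest in control 4 and next in high protein 4. Gm11808, another of the 36 genes, lay between 30.7 and 69.2 CPM. High protein against low fat gave a log2 fold change of 0.45 (SE 0.15, unadjusted p = 0.00756, edgeR adjusted p = 0.444) for Gm11808. Rpl10-ps3 had a mean of 23.64 CPM beside a far higher level of Rpl10. Without the 36 genes, the medians for high protein, low protein and low fat against control were -0.072, 0.013 and -0.022. With all 251 genes they were -0.061, 0.001 and -0.056. High against low protein went from -0.01 to -0.037 and high protein against low fat from 0.012 to -0.012 when the 36 were left out. Low fat against low protein stayed at -0.076.

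**Figure D5:**
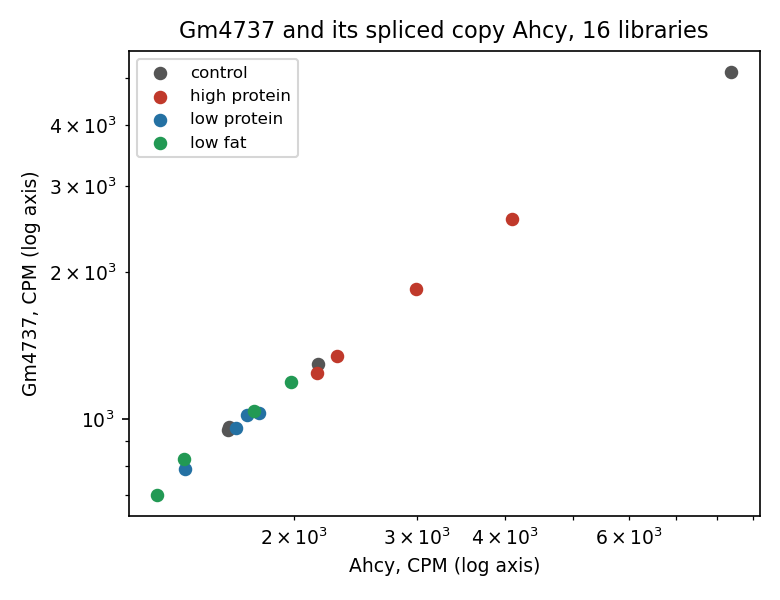
CPM of the single-exon gene Gm4737 (y axis, log) against its spliced copy Ahcy (x axis, log) in 16 libraries, coloured by diet. The points lie along 1 line, and control 4 is at the upper right with 5148 CPM of Gm4737.

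Few genes of the set ordered the libraries as kidney transcripts did. 6 genes (2.39%, near the 2.961% of all genes tested) were highest in control 3 and lowest in high protein 1, the libraries with the most and the least kidney transcripts: Pou3f3, Ier5l, Tmem229a, Sox4, Dnase1 and Cldn8. These genes were named after their values were seen. Pou3f3, a POU factor of developing kidney and brain, lay at 0.726, 0.532, 14.6 and 2.27 CPM in control, 0, 4.95, 2 and 4.18 under high protein, 4.03, 3.72, 2.24 and 2.77 under low protein and 2.03, 4.36, 7.3 and 9.57 under low fat. Dnase1, a gene of a secreted nuclease with a spliced transcript, lay at 2.73, 1.15, 68.3 and 4.02 CPM in control, 1.02, 19, 7.09 and 13 under high protein, 20.5, 16.1, 7.27 and 9.89 under low protein and 14.5, 23.2, 36.9 and 17.8 under low fat. Cldn8, a tight junction protein of the distal nephron, ran from 0.234 CPM in high protein 1 to 6.74 CPM in control 3. With the kidney marker score as a covariate, the high protein against low fat differences of Pou3f3, Dnase1, Cldn8 and Sox4 turned from -1.07, -1.21, -1.27 and -0.34 to 0.49, 0.32, 0.09 and 0.15. The genes were picked by their order along the kidney markers, so this turn cannot test a part of kidney transcripts. Ier5l and Tmem229a were not recomputed.

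The remaining lists held few single-exon genes. Irf7, the only one of the interferon list, encodes a master factor of the interferon response and is a spliced gene. It lay at 44, 35.2, 37.1 and 19 CPM in control, 59.3, 54.5, 45.8 and 46.4 under high protein, 33, 41.2, 44.2 and 32.9 under low protein and 38.4, 54.9, 40.1 and 47.9 under low fat, and all high protein libraries were above all controls (log2 fold change 0.61, SE 0.21, unadjusted p = 0.011, edgeR adjusted p = 0.762). Of the 27 multi-exon interferon genes, 23 had a higher fitted level with high protein than in control (median 0.257, against -0.062 over all genes), and 17 of the 27 had control 4 at most 1/2 of the lowest other control. Without control 4 only 11 of the 27 were higher (median -0.027), and the difference of Irf7 was 0.41. With low fat against control, 26 of the 27 were higher (median 0.594, against -0.02 over all genes), and 22 without control 4 (median 0.316). Low fat against low protein gave 24 of the 27 higher (median 0.264, against 0.002 over all genes). The median deviation of the multi-exon interferon genes was 0.785 in low fat 2 and 0.04, 0.146 and 0.281 in the other low fat libraries. The 6 ribosomal protein genes included Rpl9, Rps13 and Rpl10-ps3. Rps13 lay at 64.2, 73.1, 63.5 and 97.6 CPM in control, 78.8, 88.7, 89.3 and 108 under high protein, 72.5, 74.9, 63.4 and 78.2 under low protein and 68.4, 66.1, 57.3 and 79.2 under low fat, and high protein against low fat gave a log2 fold change of 0.43 (SE 0.15, unadjusted p = 0.0129, edgeR adjusted p = 0.47). In that comparison the 154 multi-exon ribosomal protein genes had a median of 0.265 and the 6 single-exon ones 0.183, against -0.024 over all genes. Low fat 3 and high protein 4 stood apart in this: the multi-exon median deviation from the 16-library mean was -0.356 in low fat 3, where the other low fat libraries had -0.045, -0.116 and 0.089, and 0.353 in high protein 4, where the other high protein libraries had 0.015 to 0.129. Without low fat 3 the medians were 0.182 and 0.126, and without high protein 4 they were 0.208 and 0.155. The 8 zinc finger and BTB genes, led by Zfp36, Klhl9 and Kbtbd7, had a median of -0.078 there, with Klhl9 within 37.6 to 54.4 CPM in all libraries and Kbtbd7 within 7.67 to 15.5 CPM.

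The ubiquitin list held 4 genes, led by the ubiquitin ligase genes Rnf186, Fbxl14 and Rnf113a2. Fbxl14 lay at 10.3, 10.4, 11.6 and 18.6 CPM in control, 11.5, 10.1, 10.7 and 10.8 under high protein, 8.66, 11.2, 10.0 and 8.79 under low protein and 7.82, 8.7, 9.05 and 9.97 under low fat, and all low fat libraries were below all controls (log2 fold change -0.52, SE 0.18, unadjusted p = 0.0103, edgeR adjusted p = 0.53), a difference of -0.31 without control 4. Fbxl14 lies within Wnt5b on the opposite strand and Rnf113a2 within Bbof1 on the same strand. Rnf186 was at 0.614 CPM in control 4 and between 3.96 and 13.8 CPM elsewhere. The small GTPases besides Rhob were Arl16 and Rap2b. Arl16 lay between 3.25 and 6.77 CPM and Rap2b between 0.338 and 2.65 CPM. The glycosyl- and sulfotransferases Galnt4, B3galt6 and Chst14, enzymes that build mucin-type and proteoglycan sugars, showed no library group apart. Galnt4 lay between 11.6 and 26.9 CPM. The 40 predicted genes without a descriptive name had 29 lower with low fat than with low protein, with a median of -0.134, against 0.002 over all genes. Their median deviation was -0.307 in low fat 3 and 0.021, -0.021 and -0.005 in the other low fat libraries, and without low fat 3 the count was 26 and the median -0.086. 0610030E20Rik, the third of them by level, lay between 19.5 and 43.7 CPM.

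The other genes with the smallest p-values in a comparison were mostly counted at few CPM. Gm5617 (chromosome 9, 48495442 to 48495972) lay at 5.57, 8.15, 7.1 and 6.5 CPM in control, 11.1, 10.3, 10.8 and 12 under high protein, 9.23, 12.4, 7.99 and 10.0 under low protein and 8.65, 7.45, 5.42 and 9.2 under low fat. All high protein libraries were above all controls (log2 fold change 0.70, SE 0.18, unadjusted p = 0.00162, edgeR adjusted p = 0.762), and the difference was 0.67 without control 4. Gm379, on X, lay at 3.95, 4.4, 4.98 and 2.42 CPM in control, 2.61, 3.52, 1.43 and 2.24 under high protein, 2.41, 1.92, 2.51 and 0.986 under low protein and 2.81, 1.49, 3.21 and 3.12 under low fat (log2 fold change -1.01, SE 0.35, unadjusted p = 0.0109, edgeR adjusted p = 0.682 for low protein against control). Mars2, the mitochondrial methionyl-tRNA synthetase, lay at 6.24, 5.35, 6.11 and 7.06 CPM in control, 6.01, 4.74, 5.49 and 5.07 under high protein, 5.96, 5.07, 5.42 and 4.36 under low protein and 4.4, 4.44, 3.58 and 4.95 under low fat. All low fat libraries were below all controls (log2 fold change -0.51, SE 0.16, unadjusted p = 0.00539, edgeR adjusted p = 0.53), and the difference was -0.47 without control 4. Epop, an elongin-binding chromatin protein, gave a log2 fold change of -1.94 (SE 0.54, unadjusted p = 0.00259, edgeR adjusted p = 0.53) for low fat against control, which was -0.94 without control 4. Fibin, a secreted factor, gave -2.69 there, and -0.51 without control 4.

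Bola2, a protein of iron-sulfur cluster handling, lay at 6.27, 8.04, 7.96 and 6.63 CPM in control, 7.73, 8.84, 8.49 and 12.5 under high protein, 6.22, 10.5, 7 and 7.18 under low protein and 6.07, 6.33, 4.4 and 5.82 under low fat. All high protein libraries were above all low fat libraries (log2 fold change 0.73, SE 0.20, unadjusted p = 0.00221, edgeR adjusted p = 0.384). Amigo2, a cell adhesion protein, lay at 7.02, 9.83, 9.09 and 13.7 CPM in control, 14.6, 9.36, 14.4 and 17.7 under high protein, 9.68, 9.56, 10.3 and 13.2 under low protein and 9.1, 8.39, 6.45 and 8.73 under low fat, again without overlap between these diets (log2 fold change 0.78, SE 0.22, unadjusted p = 0.00272, edgeR adjusted p = 0.388). Bcdin3d, a methyltransferase of RNA 5′ ends, lay at 4.96, 3.92, 3.33 and 4.2 CPM in control, 2.95, 3.6, 2.6 and 3.05 under high protein, 3.95, 3.68, 3.97 and 4.74 under low protein and 4.35, 3.88, 3.56 and 4.47 under low fat. All high protein libraries were below all low protein libraries (log2 fold change -0.42, SE 0.17, unadjusted p = 0.0269, edgeR adjusted p = 0.947). F8a, which encodes a huntingtin-associated protein and lies within the span of Xlr5a on the opposite strand, lay at 6.47, 7.17, 7.27 and 9.14 CPM in control, 6.86, 5.45, 6.44 and 4.8 under high protein, 6.96, 7.71, 8.72 and 8.27 under low protein and 7.87, 6.75, 6.63 and 5.42 under low fat. High protein was below low protein without overlap (log2 fold change -0.43, SE 0.17, unadjusted p = 0.0206, edgeR adjusted p = 0.944). Gm12166, with a near-identical copy in Sft2d1, gave a log2 fold change of -0.53 (SE 0.19, unadjusted p = 0.013, edgeR adjusted p = 1.0) for low fat against low protein. Groups did not overlap for 4 of the 251 genes higher and 1 lower with high protein than in control (1.12% and 0.841% of all genes). High against low protein gave 7 higher and 11 lower (3.15% and 3.47% of all genes), and high protein against low fat gave 15 and 7 (4.23% and 3.99% of all genes). Low protein against control gave 3 and 0 (1.61% and 0.869%), low fat against control 4 and 6 (1.27% and 1.31%), and low fat against low protein 3 and 9 (2.35% and 2.14%).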

How the data were processed

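RNA of 16 livers was sequenced, with 4 animals per diet, and groups were taken from the sample titles. The table deposited by the authors gives unnormalised counts of reads for each gene, beside exon intervals and gene length. The submitters' processing notes name STAR 2.7.0f, Trimmomatic 0.39, Subread 1.6.4 with featureCounts, edgeR 3.32.1 and build GRCm38.p6, with settings not given in the sources used here. Library totals were 35243594 to 112789127 counts. Of 54752 genes, 53861 matched GENCODE M21, which supplied symbols, biotypes, transcripts and GC content.

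All counts were fitted with edgeR 4.0.16 in R 4.3.3: filterByExpr (17833 genes), TMM factors, a quasi-likelihood model with 4 group means and 12 residual degrees of freedom, and 6 two-sided contrasts with Benjamini-Hochberg adjustment over all genes tested at 0.05. The standard error (SE) is the log2 fold change divided by the square root of F. CPM uses TMM-scaled library sizes, and RPKM divides it by summed exon length. Copies of the longest transcript of each gene were sought with blastn 2.17.0 among annotated transcripts. The genes and lists were chosen with earlier results of these data known. The genes described were the 10 highest in RPKM, the 3 with the smallest unadjusted p in each comparison and the 3 highest in CPM of each of 14 lists (53 genes in all, of which 1 is not reported here). A further 8, Paqr9, Ier2, Atf4, Pou3f3, Cldn8, Dnase1, Cldn4 and Sox4, were chosen after their values were seen. Alternatives were RLE factors, DESeq2 1.42.0, no filter, the compared groups alone, a replicate block, a kidney score as covariate, other level minima, 1 exon interval only, leaving out each library and, added after the data were seen, leaving out genes with a near-identical copy. On simulated counts for high protein against control (17507 genes), 4, 28, 43 and 48 of 50 genes changed by 1.5-, 2-, 4- and 8-fold were recovered, with 5 false calls. Apart from these changes, the simulated counts varied around a common mean per gene with the estimated spread. No simulated library was made to stand apart as control 4 did, so recovery in the real libraries may differ.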

Additional observations from a re-analysis of the deposited data

Results flagged for a closer look

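In groups of 4, a library was examined when its gap to the nearest other library took nearly the whole range of its diet. Of 252 groups examined 32 met this rule. About 1 in 20 groups of independent, normally distributed values meet it by chance, but the groups here share libraries. Some of the genes were also chosen after their values were seen or for their smallest p, so the count cannot be held against that rate. 17 of the 32 fall on control 4, 4 on control 3 and 4 on low fat 3. No explanation was tested.

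In control 4, the highest of its diet, the level was 432 CPM for Atf4 (other controls 50.5 to 86.3), 63.7 for Cebpd (5.94 to 7.78), 14.7 for Epop (1.86 to 3.89) and 18.6 for Fbxl14 (10.3 to 11.6). It was 14.5 CPM for Fibin (0.435 to 1.48), 5150 for Gm4737 (951 to 1300), 119 for H1f0 (101 to 104) and 299 for Hist1h1c (52.0 to 71.7). It was 251 CPM for Ier2 (18.4 to 33.2), 421 for Jun (26.1 to 43.2), 214 for Jund (34.9 to 46.5) and 713 for Mt1 (2.64 to 10.8). Rhob was at 116 CPM (26.0 to 35.6), Rnf113a2 at 20.5 (5.84 to 7.17), Rpl9 at 205 (128 to 131), Thbd at 11.1 (2.58 to 3.53) and Zfp36 at 483 (53.6 to 80.7).

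In control 3, which held the most kidney transcripts, Cldn4 was at 2.82 CPM (others 0 to 0.46), Cldn8 at 6.74 (0.252 to 0.871), Dnase1 at 68.3 (1.15 to 4.02) and Pou3f3 at 14.6 (0.532 to 2.27). In high protein 4, Jun was at 92.4 CPM (35.2 to 44.6) and Mt1 at 185 (17.6 to 41.1). In high protein 3, Rhob was at 44.8 CPM (32.1 to 33.7). In high protein 2, Cldn4 was at 2.8 CPM (0.085 to 0.541), and Rnf113a2 was the lowest at 8.36 (9.25 to 9.39).

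In low fat 4, Cebpb was at 26.4 CPM (3.0 to 5.92) and Mt1 at 46.6 (4.64 to 11.0). In low fat 3, Cldn4 was at 4.68 CPM (1.27 to 1.82), Fzd7 at 25.2 (10.2 to 10.8) and Galnt4 at 23.8 (16.5 to 17.6). The median deviation of the 251 single-exon genes was -0.126 in low fat 3, the lowest of its diet (others -0.001 to 0.02).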

How the results depend on the processing

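Values below are counts of the 251 genes at an unadjusted p under 0.05 unless stated, in the order high protein, low protein and low fat against control, then high against low protein, high protein against low fat, and low fat against low protein; with all libraries they are 17, 25, 27, 12, 24 and 7. With the compared groups alone they were 4, 8, 12, 33, 41 and 30. With 1 exon interval only, 11, 7, 11 and 4 remained for high protein against control, high against low protein, high protein against low fat and low fat against low protein. With a mean minimum of 5 CPM they were 11, 16 and 4 for high and low protein against control and low fat against low protein, and the medians for low fat against control and high protein against low fat were -0.119 and 0.069. DESeq2 gave 11 for low fat against low protein. The kidney covariate gave 16 for low fat against control. Same-numbered animals did not deviate together (median r 0.039 over 24 pairs), and the replicate block, under which no gene passed, gave 19 for high against low protein. After adjustment 1 gene passed for high protein against low fat with DESeq2 and with the compared groups alone. Leaving out each library gave 12 to 33, 10 to 48, 19 to 58, 4 to 15, 16 to 27 and 5 to 12, with 0 to 0 of the 251 passing after adjustment (of all genes, 109 passed for low fat against control without control 3, and 2 and 1 for high protein against low protein and low fat without high protein 3), and medians of -0.105 to 0.015, -0.023 to 0.045, -0.093 to -0.021, -0.038 to -0.003, -0.01 to 0.057 and -0.092 to -0.031. Without control 4 the log2 fold change turned sign for low protein against control in Jun (0.168), Mt1 (1.06), Rhob (0.075), Rnf113a2 (0.138) and Atf4 (0.059), and for low fat against control in Jund (0.204) and Zfp36 (0.469); these were the upper ends over all left-out libraries, the lower ends being -2.127, -4.257, -0.844, -0.643, -1.32, -1.086 and -1.153. With the kidney covariate it turned for high protein against low fat in Cldn8 (0.086), Dnase1 (0.321), Pou3f3 (0.491) and Sox4 (0.148). Those genes were picked by their order along the kidney markers. The cause of the turned signs was not tested. These are 11 of the 63 single-gene differences recomputed, mostly 1 comparison per gene; differences not recomputed gene by gene may turn too, as the counts of the immediate early genes without control 4 did.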
